A study of Homo sapiens with 30 samples.

Results

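The comparison set co-cultures exposed to titanium dioxide nanobelts at 10 µg/ml for 24 h against control co-cultures kept in medium for 24 h. The 3 exposed and 3 control arrays were taken by their titles, which makes 6 of the 30 arrays of the study. All 22215 probe sets that are not hybridisation or quality controls were tested. The test was a contrast of these 2 groups in a fit to all 30 arrays. The study exposed a human intestinal co-culture to 2 engineered particles, multi-walled carbon nanotubes (MWCNT) and titanium dioxide nanobelts (TiO2-NB), at 2 doses and 2 times, with 3 biological replicates in each of 10 groups. Its labels give comparison of exposed with unexposed cells as the design and state no further aim.

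Exposed wells (TiO2-NB, 10 µg/ml, 24 h) held 1.5 ml of particle suspension in the apical compartment and 2.5 ml of fresh medium below. Further arrays used here came from TiO2-NB at 100 µg/ml for 24 h, from MWCNT at 10 µg/ml for 24 h, and from TiO2-NB at 10 µg/ml for 1 h. Control wells (24 h, and 1 h for the earlier time) had fresh medium in both compartments, and no wells with particle-free suspension are named. All groups shared the same cells: Caco-2, derived from a human colorectal carcinoma and able to differentiate into absorptive cells, and HT29-MTX, a mucus-secreting line selected with methotrexate from human colon carcinoma cells, mixed at 75% and 25% and kept for 14 days on Transwell inserts. Caco-2 of passage 49 and 63 and HT29-MTX of passage 29 and 33 were grown and pooled, and no label ties a passage to an array. The replicates are called biological without naming separate flasks or days, so p-values cannot be taken to measure more than a spread between wells. That spread was pooled over all 10 groups and is not that of the compared wells alone. In such a mixture, fewer cells of one line and less RNA per cell cannot be told apart.

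Titanium dioxide is a white pigment used in food and consumer goods, and nanobelts are its ribbon-shaped crystals. The intestinal epithelium meets swallowed particles at its apical face, where absorptive cells carry a brush border and goblet cells cover it with mucus. CLK kinases phosphorylate SR proteins, a family of splicing factors rich in serine and arginine, and so help to decide which exons are kept. Several CLK and SR genes make alternative transcripts, some of which are retained in the nucleus or broken down.

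The gene changes centred on few genes, and the start regions of 4 of them are shown. CLK1 rose in its only probe set, while TOP1, UGCG and SRSF6 each had 1 of 2 probe sets called lower. The other probe set of each of these did not pass. Each sequence runs 5′ to 3′ on the gene's own strand, from 250 bases before the annotated start to 50 bases after it, taken from RefSeq with build GRCh38.p14. CLK1 lies at chr2:200864609-200864908 on the minus strand, TOP1 at chr20:41028572-41028871, UGCG at chr9:111896564-111896863 and SRSF6 at chr20:43457646-43457945, the last 3 on the plus strand. Capitals mark matches to the GC box GGGCGG and the core TGACG of the cyclic AMP response element, or to their reverse complements CCGCCC and CGTCA.
CLK1: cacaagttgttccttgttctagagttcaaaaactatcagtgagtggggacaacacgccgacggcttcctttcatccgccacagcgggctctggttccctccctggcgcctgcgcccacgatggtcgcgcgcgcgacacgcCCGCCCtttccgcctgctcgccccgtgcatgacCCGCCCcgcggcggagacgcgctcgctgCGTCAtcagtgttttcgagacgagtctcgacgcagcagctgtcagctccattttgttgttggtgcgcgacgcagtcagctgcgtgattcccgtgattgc
TOP1: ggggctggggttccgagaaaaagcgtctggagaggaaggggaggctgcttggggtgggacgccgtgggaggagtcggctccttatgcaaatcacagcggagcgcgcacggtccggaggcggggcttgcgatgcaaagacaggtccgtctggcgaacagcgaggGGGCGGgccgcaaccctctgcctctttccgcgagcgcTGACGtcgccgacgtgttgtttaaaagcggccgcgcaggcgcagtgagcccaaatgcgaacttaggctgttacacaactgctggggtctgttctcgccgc
UGCG: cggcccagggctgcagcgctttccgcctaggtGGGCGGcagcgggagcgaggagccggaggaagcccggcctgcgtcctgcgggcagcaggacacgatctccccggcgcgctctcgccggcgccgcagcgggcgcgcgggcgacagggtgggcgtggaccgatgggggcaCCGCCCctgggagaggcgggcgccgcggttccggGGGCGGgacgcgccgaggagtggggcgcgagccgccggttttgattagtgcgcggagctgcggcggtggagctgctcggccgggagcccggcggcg
SRSF6: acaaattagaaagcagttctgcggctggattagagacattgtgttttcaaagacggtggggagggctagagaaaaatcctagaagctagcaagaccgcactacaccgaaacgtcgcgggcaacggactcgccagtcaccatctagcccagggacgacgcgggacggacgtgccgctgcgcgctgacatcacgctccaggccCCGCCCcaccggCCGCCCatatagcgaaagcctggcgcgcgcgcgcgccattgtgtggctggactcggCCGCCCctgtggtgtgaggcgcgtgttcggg
All 11 named genes that passed the test had such a window in the table, of 35116 windows in all. The GC box was in 9 of the 11, against 45% of all windows, and TGACG was in 5 of the 11, against 24.6%. CCAAT was in 3 of them (34.6% of all windows), TATAAA in 2 (11.5%), CCGGAAG in 1 (10.3%), TGANTCA in 1 (7.71%) and CACGTG in 0 (7.26%). Both strands were searched for these 7 motifs, and a match describes letters only. The shares are over all windows and not over those of genes measured on these arrays, so no enrichment is read from them. None of the windows says where on a transcript a probe set lies, because no probe coordinates were used.

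Gene expression differed little between the exposed and control co-cultures. At an adjusted p under 0.05 (limma, Benjamini-Hochberg over all probe sets), 13 probe sets were called (0.0585% of those tested), 5 higher (0.0225%) and 8 lower (0.036%). Without adjustment, 1686 probe sets (7.59%) had p under 0.05. All 13 called probe sets had exposed arrays lying wholly on one side of the controls, as did 7.36% of all probe sets above and 6.89% below, and 8 of the 13 changed by at least 1.5-fold. Of the 5 that rose, 3 name a single gene (CLK1, PTP4A1 and DMXL2) and 2 match several symbols and are not named. Those 2 rose by 0.75 ± 0.13 in log2 level (adjusted p = 0.0113), the largest of the 5 rises, and by 0.42 ± 0.06 (adjusted p = 0.00147). The 8 that fell each name 1 gene. Leaving out control replicate 3 left 8 calls. With only the 6 arrays compared in the fit, 16 probe sets were called, 0 higher and 16 lower, and 6 of them were among the 13.

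The median log2 change over 11963 genes, with 1 probe set for each, was 0.0051, and from the 5% to the 95% quantile the changes ran from -0.16 to 0.14. The SD of a probe set over 3 arrays had a median of 0.0767 in the exposed group and 0.0627 in the control group, and the lowest correlation between replicate arrays was 0.998 in the exposed group and 0.999 in the control group. The 18S ribosomal probe sets averaged 8.54, 8.77 and 8.78 (log2) on the exposed arrays, against 8.26, 8.43 and 8.59 on the controls, a difference of 0.27 with overlapping arrays (exact two-sided permutation p = 0.2, where 0.1 is the smallest possible with 3 against 3). With the 18S level as a covariate, 54 probe sets were called, 9 higher and 45 lower. The 28S mean differed by -0.01 (exact p = 0.8), the GAPDH mean by 0.0208 (exact p = 0.1) and the ACTB mean by 0.0789 (exact p = 0.1). The gap between the 3′ and 5′ probe sets, a sign of RNA breakdown, averaged -0.0473 for GAPDH in the exposed group and -0.0445 in the control group (exact p = 0.6), and 0.39 and 0.40 for ACTB (exact p = 0.9). The part of 18S in the gene changes below was not tested beyond that covariate.

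CLK1, a kinase that phosphorylates SR proteins, had the smallest p of all probe sets. Its log2 level was 8.51, 8.83 and 8.63 on the exposed arrays, against 7.97, 8.02 and 7.87 on the controls, so every exposed array lay above every control. The level rose by 0.70 ± 0.07 (SE from the spread pooled over all 30 arrays, n = 3 each), or 1.63-fold, with an adjusted p of 4.3e-06. The SD of the CLK1 level was 0.16 on the exposed arrays and 0.08 on the controls. Its relative CLK4 was at 8.28, 8.50 and 8.36 on exposed arrays, against 8.10, 8.15 and 8.05 on controls. CLK4 had a change of 0.28 ± 0.06 and an adjusted p of 0.0998, and did not pass. Only the fit to the arrays of these 2 groups alone lost the call for CLK1 (adjusted p = 0.067).

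PTP4A1, a protein tyrosine phosphatase anchored to membranes by a lipid tail, rose through 1 of its 4 probe sets. That probe set was at 10.17, 10.29 and 10.14 on exposed arrays and at 9.81, 9.82 and 9.76 on controls, a change of 0.40 ± 0.06 (adjusted p = 0.00161, or 0.0744 with only the arrays of these 2 groups in the fit). The other 3 PTP4A1 probe sets had changes between -0.03 and 0.07. DMXL2, a large protein tied to the assembly of the vacuolar proton pump, was at 6.44, 6.72 and 6.57 on exposed arrays, against 6.19, 6.28 and 6.15 on controls. It rose by 0.37 ± 0.07, at an adjusted p of 0.0490 that lies just inside the threshold and was lost in 9 of 15 alternative fits, among them those without exposed replicate 2 or 3 or any 1 of the controls (adjusted p between 0.00803 and 0.367 over the 15). The second DMXL2 probe set had a change of -0.24 ± 0.12, which did not pass.

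TOP1 encodes DNA topoisomerase I, which relieves the twist that builds up in DNA during transcription and replication. It had the largest fall among the called genes, through 1 of its 2 probe sets. That probe set was at 6.85, 6.62 and 6.37 on exposed arrays, against 7.79, 7.92 and 7.73 on controls. The gap between the groups is wider than the spread within either, and the change was -1.20 ± 0.16 (2.30-fold lower, adjusted p = 0.000626). The other TOP1 probe set was at 11.39, 11.50 and 11.44 on exposed arrays and at 11.43, 11.36 and 11.40 on controls. Its arrays overlap, and its change was 0.04 ± 0.05.

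SRSF6, an SR protein, also had a pair of probe sets that moved apart. The called one was at 7.74, 7.52 and 7.41 on exposed arrays, against 8.21, 8.37 and 8.20 on controls, a fall of 0.70 ± 0.09 in log2 level (adjusted p = 0.000626, or 0.0735 with only the arrays of these 2 groups in the fit). The other was at 10.57, 10.66 and 10.48 on exposed arrays and at 10.39, 10.46 and 10.34 on controls. Its exposed arrays all lay above its controls, with a change of 0.17 ± 0.06 that did not pass (adjusted p = 0.465).

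UGCG makes glucosylceramide, from which most glycosphingolipids are built. Its called probe set was at 6.08, 5.86 and 6.00 on exposed arrays, against 6.70, 6.82 and 6.77 on controls, a change of -0.79 ± 0.12 (adjusted p = 0.00161). The second UGCG probe set showed no shift beyond its error, at 5.51, 5.45 and 5.39 on exposed arrays and 5.43, 5.54 and 5.40 on controls. GPATCH8, a zinc finger protein with a G-patch domain of the kind found in RNA-processing factors, was at 6.76, 6.66 and 6.55 on exposed arrays, against 7.25, 7.30 and 7.42 on controls. It fell by 0.67 ± 0.10 (adjusted p = 0.00225), while its other probe set had a change of 0.04 ± 0.04.

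ANKRD11, an ankyrin repeat protein that acts on chromatin in the nucleus, has 1 probe set here. It was at 5.90, 5.94 and 5.98 on exposed arrays, against 6.72, 6.85 and 6.80 on controls, a change of -0.85 ± 0.14 (adjusted p = 0.00927). Its call was lost without exposed replicate 2, control replicate 2 or control replicate 3, with an adjusted p of up to 0.0785. LINC00339, a long non-coding RNA, was at 6.93, 6.68 and 6.96 on exposed arrays, against 7.32, 7.32 and 7.41 on controls. It fell by 0.50 ± 0.07 (adjusted p = 0.00147). With only the arrays of these 2 groups in the fit, its adjusted p was 0.152.

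PRKCI is the atypical protein kinase C iota, part of the complex that sets apart the apical and basal sides of epithelial cells. Its called probe set was at 7.53, 7.47 and 7.52 on exposed arrays, against 8.07, 8.08 and 8.11 on controls, a change of -0.58 ± 0.10 (adjusted p = 0.0101). The other 2 PRKCI probe sets had changes of 0.20 ± 0.11 and 0.03 ± 0.05. The call was lost without exposed replicate 2 or 3 or any 1 of the controls (adjusted p of up to 0.0945).

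PHACTR2, which binds actin and a protein phosphatase, was the one called gene with several probe sets whose exposed arrays all lay below the controls in each of them. The called probe set was at 7.37, 7.25 and 7.13 on exposed arrays, against 7.92, 8.03 and 7.85 on controls, a change of -0.68 ± 0.13 (adjusted p = 0.0347). The other 2 had changes of -0.45 ± 0.11 and -0.19 ± 0.10 with arrays that do not overlap, and did not pass. The call was lost in 6 of 15 alternative fits, those without exposed replicate 2 or 3 or any 1 of the controls and that over the 24 h arrays (adjusted p of up to 0.308).

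**Figure D1:**
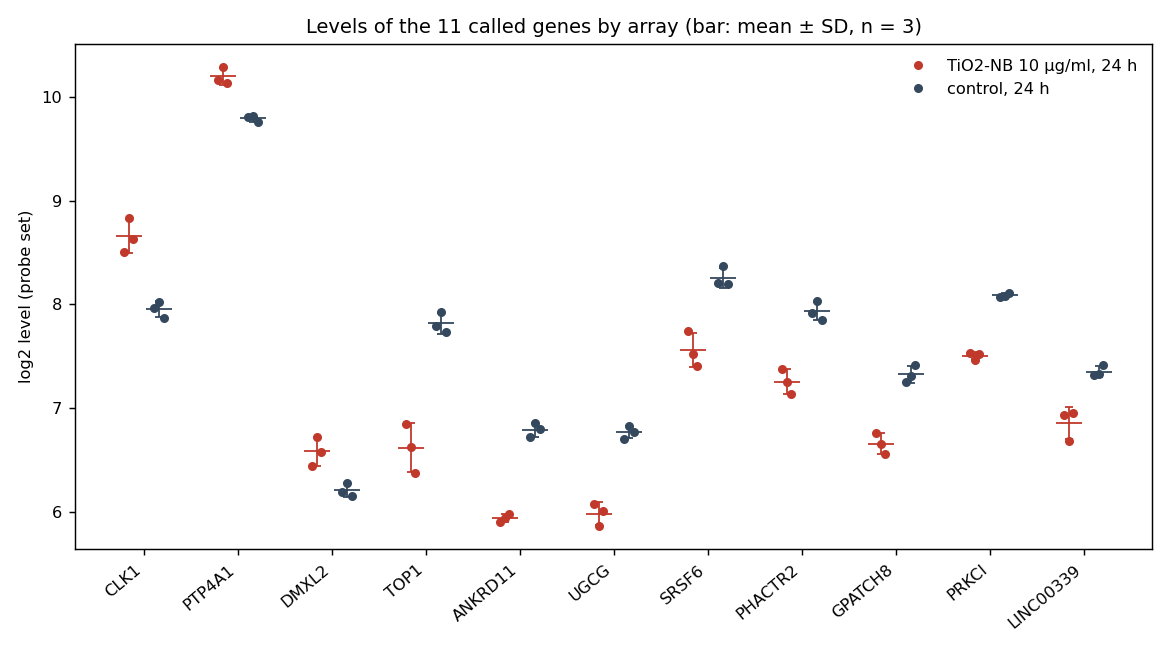
Log2 levels of the called probe set of the 11 named genes on each array, exposed co-cultures (TiO2-NB, 10 µg/ml, 24 h) in red to the left of controls in blue, with bars for mean ± SD (n = 3 each). The groups do not overlap for any of the 11; CLK1, PTP4A1 and DMXL2 are higher in exposed arrays and the other 8 are lower, TOP1 by the widest gap (-1.20).

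Below the threshold, the genes next in order were named to 10 in each direction. The highest-ranked unpassed rises were PSMD12, a lid subunit of the proteasome (0.19 ± 0.04, adjusted p = 0.0646), CLK4 (above) and IPO4, an importin (0.24 ± 0.05, adjusted p = 0.140). IPO4 was at 6.42, 6.41 and 6.42 on exposed arrays, against 6.16, 6.17 and 6.19 on controls. ITPR2, a calcium channel of the endoplasmic reticulum, FZD7, a Wnt receptor, STS, the steroid sulfatase, and GABPA, an ETS family transcription factor, had changes between 0.21 and 0.44 and adjusted p from 0.140 to 0.237. For ITPR2 and STS these values came from 1 of 4 probe sets, at low mean levels of 3.99 and 3.46 on exposed arrays. Their other probe sets had changes from -0.20 to 0.09 and from -0.06 to 0.11. The second probe sets of PSMD12 and FZD7 each had a change of 0.06. Among unpassed falls, ZBTB38, a zinc finger protein that binds methylated DNA, was at 5.63, 5.64 and 5.66 on exposed arrays, against 6.13, 6.23 and 6.23 on controls (change -0.55 ± 0.11, adjusted p = 0.0646). UBN1, a subunit of the HIRA histone chaperone complex, had a change of -0.53 ± 0.11 (adjusted p = 0.0646). Its other probe set had a change of 0.05 ± 0.06.

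Whether probe sets of 1 gene changed unequally was then tested directly, after the pattern had been seen in these values. In each of 4310 genes with several probe sets, each further probe set was set against the one with the highest mean, and limma was run on the difference over 7101 such pairs. The change differed in 14 pairs (0.197%), against 571 at an unadjusted p under 0.05. In SRSF6 the called probe set moved by -0.87 ± 0.07 relative to the other (adjusted p = 1.34e-07). In TOP1 the difference was -1.24 ± 0.16 (adjusted p = 0.000162), and in GPATCH8 it was -0.71 ± 0.09 (adjusted p = 0.000222). PTP4A1, UGCG and PRKCI also passed. These genes were picked out by the change of 1 probe set, which is part of the difference tested here, so how many of them passed is a description only. In DMXL2 and PHACTR2 no pair passed (smallest adjusted p = 0.136 and 0.338).

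The 8 remaining pairs came from genes outside the called ones: WASHC4, a subunit of the WASH complex of endosomes, F5, coagulation factor V, MYO6, the myosin that walks toward the minus end of actin, UBN1, MCM4, a subunit of the replicative helicase, KPNA3, an importin, EPRS1, a transfer RNA synthetase, and CDC14B, a phosphatase. Differences ran from -0.91 ± 0.17 in WASHC4 to 0.46 ± 0.09 in F5. The number of called pairs was 18, 5 and 7 on leaving out exposed replicates 1, 2 and 3 in turn. It was 7, 7 and 6 on leaving out control arrays 1, 2 and 3 in turn. With only the arrays compared in the fit it was 18, with 8 of them also called in the main fit. With the replicate number as a block it was 21. It was 6 with only the 24 h arrays in the fit and 47 with 18S as a covariate. Labelled RNA was copied from an oligo-dT primer, and whether probe sets of a gene differ in distance from the transcript's end was not tested.

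**Figure D2:**
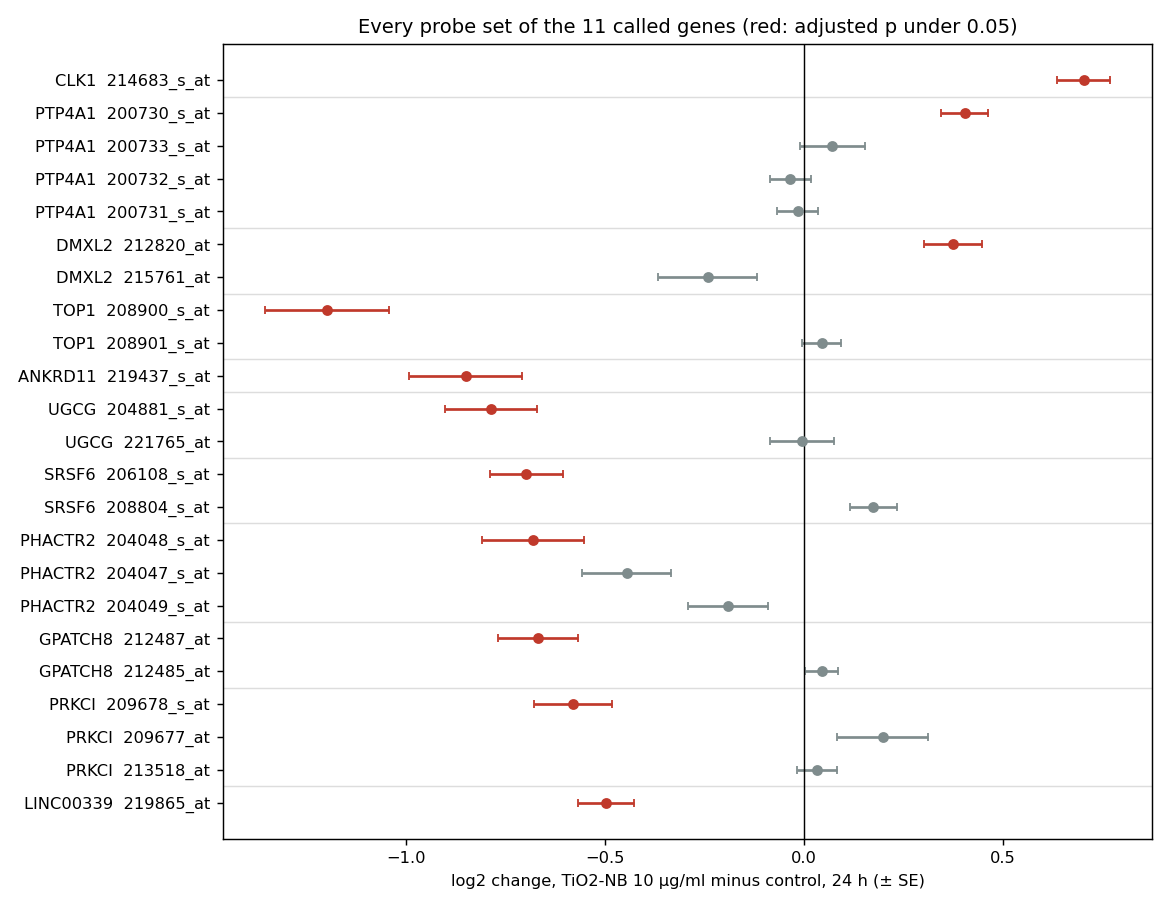
Log2 change (exposed minus control, ± SE) of every probe set of the 11 named genes, with called ones in red. In TOP1 the called probe set stands at -1.20 and the other at 0.04; in SRSF6 they stand at -0.70 and 0.17; the 3 PHACTR2 probe sets all lie below 0.

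The low dose was set against 100 µg/ml of the same nanobelts at 24 h, a test that uses no control array. It shares the low-dose arrays with the comparison against control, so the 2 are not independent. In all, 406 probe sets differed (1.83%), 378 higher at the low dose (1.7%) and 28 lower (0.126%). With only the 6 arrays of the 2 dose groups in the fit, 2 were called. The count was 266 without replicate 2 of the low dose and 191 without replicate 3 of the high dose.

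By their called probe sets, 3 of the 11 genes called against control differed between the doses, all with higher levels at 10 than at 100 µg/ml. TOP1 was at 6.85, 6.62 and 6.37 at 10 µg/ml, against 5.92, 5.67 and 5.46 at 100 µg/ml, a difference of 0.93 ± 0.16 (limma adjusted p = 0.000935). The other TOP1 probe set had a difference of -0.11 ± 0.05 that did not pass (adjusted p = 0.483). PHACTR2 was at 7.37, 7.25 and 7.13 at 10 µg/ml, against 6.56, 6.28 and 5.77 at 100 µg/ml, a difference of 1.05 ± 0.13 (adjusted p = 0.000102). Its other probe sets had differences of 0.70 ± 0.10 (adjusted p = 0.00028) and -0.10 ± 0.11 (adjusted p = 0.937). ANKRD11 was at 5.90, 5.94 and 5.98 at 10 µg/ml, against 5.67, 5.37 and 5.00 at 100 µg/ml (0.59 ± 0.14, adjusted p = 0.0228). For the called probe sets of these 3 genes, the dose groups do not overlap.

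For the other 8 the difference between doses did not pass. UGCG had levels of 6.08, 5.86 and 6.00 at 10 µg/ml and of 6.07, 5.97 and 5.94 at 100 µg/ml, a difference of -0.02 with a 95% interval from -0.25 to 0.22. CLK1 was at 8.51, 8.83 and 8.63 at 10 µg/ml and at 8.81, 8.75 and 8.92 at 100 µg/ml, a difference of -0.18 with an interval from -0.31 to -0.04 before adjustment (adjusted p = 0.337). SRSF6 and GPATCH8 had differences of 0.30 (interval 0.11 to 0.49) and 0.36 (0.15 to 0.57), with adjusted p of 0.124 and 0.0745. PRKCI, LINC00339, PTP4A1 and DMXL2 had differences between -0.05 and 0.28. These intervals leave room for differences of those sizes.

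Named by size, the genes higher at the low dose were led by TPR, a protein of the nuclear pore basket. Each gene here is given by its called probe set with the largest difference. Any other probe sets of these genes are not described, so the values do not stand for the whole gene. TPR was at 7.79, 7.97 and 7.56 at 10 µg/ml, against 6.84, 5.55 and 4.50 at 100 µg/ml, a difference of 2.14 ± 0.30 (adjusted p = 0.000271). The high-dose arrays are spread over more than 2 log2 units here, far wider than the low-dose arrays. PDPK1, the kinase that activates AKT (1.48 ± 0.22), NKTR, a cyclophilin with an arginine and serine rich region (1.41 ± 0.25), HSP90AA1, a cytosolic chaperone, through one of its probe sets (1.41 ± 0.22), and MTUS1, a microtubule-binding protein (1.40 ± 0.23), followed. In each of these 4, too, high-dose replicate 3 was the lowest array. Over TPR and these 4, the SD ran from 0.80 to 1.17 at 100 µg/ml and from 0.09 to 0.21 at 10 µg/ml. The ± values use a spread pooled over all 10 groups, so they do not reflect the wide high-dose spread. Against the control the low-dose changes of these 5 genes lay between -0.51 (PDPK1) and -0.22 (HSP90AA1), and none passed.

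CCL20, a chemokine that draws immune cells to the gut lining, was the largest of those lower at the low dose. It was at 8.01, 7.94 and 7.92 at 10 µg/ml, against 8.63, 8.63 and 8.70 at 100 µg/ml (-0.70 ± 0.08, adjusted p = 0.000102), and at 7.93, 7.94 and 7.68 on the controls. SNAP25, CAPN6, SLC17A3 and PDLIM4 had differences between -0.37 and -0.36, all at low log2 levels between 2.45 and 4.68 on these arrays. Each of these 4 calls held in 2 of the 6 fits without 1 array, with an adjusted p of up to 0.546 for SNAP25, 0.196 for CAPN6, 0.186 for SLC17A3 and 0.201 for PDLIM4. The low-dose level of CCL20 had a change against control of 0.11 ± 0.08, which did not pass.

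At the same dose and time, nanobelts were set against carbon nanotubes, again with no control array in the contrast. The nanobelt arrays are the same ones by which genes were called against control. The return of those genes here is therefore a description only. Only 7 probe sets differed (0.0315%, with 1083 or 4.88% at an unadjusted p under 0.05), 2 higher with nanobelts (0.009%) and 5 lower (0.0225%). TOP1 was at 6.85, 6.62 and 6.37 with TiO2-NB, against 7.81, 7.81 and 7.44 with MWCNT, a difference of -1.07 ± 0.16 (limma adjusted p = 0.0032). UGCG was lower with nanobelts by -0.84 ± 0.12 (adjusted p = 0.00205) and SRSF6 by -0.69 ± 0.09 (adjusted p = 0.00205), like TOP1 through the called probe set. The other probe sets of TOP1, SRSF6 and UGCG had differences of 0.07, 0.15 and -0.24 and did not pass (smallest adjusted p = 0.609). LINC00339 differed by -0.39 ± 0.07 and SBNO1, a helicase-like protein, by -0.49 ± 0.09 (both adjusted p = 0.0449). CLK1 was higher, at 8.51, 8.83 and 8.63 with TiO2-NB, against 8.21, 8.33 and 8.26 with MWCNT (0.38 ± 0.07, adjusted p = 0.0347). Of the 6 fits without 1 array, the calls for LINC00339, SBNO1 and CLK1 held only in that without nanobelt replicate 1 (adjusted p of up to 0.426, 0.347 and 0.343), and that for TOP1 held in 3 (up to 0.0572). UGCG and SRSF6 passed in all 6.

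CYP1A1, a cytochrome P450 induced through the aryl hydrocarbon receptor, was higher with nanobelts by 0.58 ± 0.11 (adjusted p = 0.0449). The call was lost in every fit without 1 array (adjusted p from 0.105 to 0.347). Its levels were 7.38, 7.27 and 7.44 with TiO2-NB, against 6.75, 6.83 and 6.78 with MWCNT. The 24 h controls were at 7.42, 7.28 and 7.37, close to the nanobelt arrays, and the nanobelt change against control was 0.0064. The number of calls was 3 without nanobelt replicate 2, 2 without nanobelt replicate 3, 2 without nanotube replicate 1, 2 without nanotube replicate 2, and 4 without nanotube replicate 3. It was 1 with only the 24 h arrays and 45 with 18S as a covariate. For ANKRD11, PHACTR2, GPATCH8 and PRKCI the particles differed by -0.72, -0.63, -0.51 and -0.48 without passing (adjusted p from 0.0894 to 0.112).

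**Figure D3:**
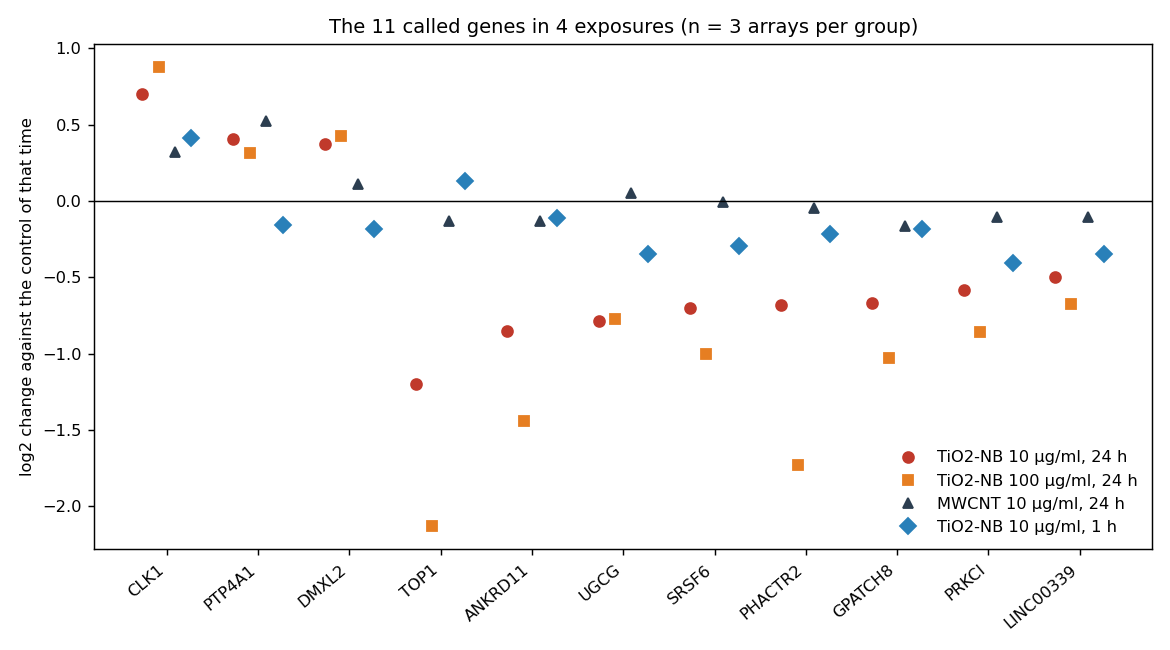
Log2 change of the called probe set of the 11 named genes against the control of the same time, for 4 exposures (mean difference, n = 3 arrays per group). The 24 h changes share their 3 control arrays, so their likeness is not a separate result; TOP1 stands at -1.20 with TiO2-NB at 10 µg/ml, -2.13 at 100 µg/ml, -0.13 with MWCNT and 0.13 with TiO2-NB at 1 h.

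The change against control at 24 h was also set against the change at 1 h, each with its own controls. It differed in 851 probe sets (3.83%), 654 with a higher value at 24 h (2.94%) and 197 with a lower one (0.887%), while 3915 (17.6%) had p under 0.05 without adjustment. Leaving out 1 array gave 465 calls without exposed 24 h replicate 2, 520 without 24 h control replicate 3 and 546 without 1 h control replicate 3. The 24 h change by which genes were called against control is part of this difference. Calls among those genes are therefore a description only.

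The called TOP1 probe set had a change of -1.20 at 24 h and of 0.13 at 1 h, a difference of -1.33 ± 0.22 (limma adjusted p = 0.000985). Its 1 h arrays overlapped, at 8.40, 8.63 and 7.89 when exposed and 8.11, 8.26 and 8.16 in controls. The other TOP1 probe set had a difference of -0.04 ± 0.07 that did not pass (adjusted p = 0.853). ANKRD11 differed by -0.74 ± 0.20 (adjusted p = 0.0373), a call that held in 1 of 12 fits without 1 array, that without exposed 1 h replicate 3 (differences from -0.90 to -0.56, adjusted p of up to 0.101). The called PTP4A1 probe set differed by 0.56 ± 0.08 (adjusted p = 0.000358), while its other 3 had differences between -0.17 and -0.02 that did not pass. The probe sets of DMXL2 passed in opposite directions, the one called against control by 0.56 ± 0.10 (adjusted p = 0.00269) and the other by -0.64 ± 0.18 (adjusted p = 0.0428), with changes of -0.24 at 24 h and 0.39 at 1 h. CLK1, by contrast, had changes of 0.70 at 24 h and 0.41 at 1 h, and the difference of 0.29 ± 0.09 did not pass (adjusted p = 0.0894). For the called probe sets of UGCG, SRSF6, PHACTR2, GPATCH8, PRKCI and LINC00339 the differences ran from -0.48 to -0.15 with no call.

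Most of the largest differences between the times came from genes near their control at 24 h. Each is given by its called probe set with the largest difference, and any other probe sets are not described. FAM13A was at 11.61, 11.64 and 11.70 when exposed for 24 h, against 11.80, 11.66 and 11.63 in controls, and at 9.20, 9.42 and 9.08 when exposed for 1 h, against 10.70, 11.03 and 10.69. Its change was -0.05 at 24 h and -1.57 at 1 h. PCK1, which starts gluconeogenesis, KLHL24, an adaptor of a ubiquitin ligase, KANK1, a regulator of actin, and KHDC4, an RNA-binding protein, had changes between 0.06 and 0.12 at 24 h and between -1.11 and -0.98 at 1 h. BHLHE40, a repressor in the circadian clock, and DDIT4, an inhibitor of mTOR signalling, had changes of 0.06 and 0.04 at 24 h and of 1.04 and 0.86 at 1 h. EXOG, a mitochondrial nuclease, had changes of -0.15 and 0.56 at 24 h and 1 h. None of these 8 genes was called against control at 24 h.

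Gene lists for the tissue and the particles were described with 1 probe set per gene, 44 lists with 1037 of 1220 members measured (1011 different genes). Among all 11963 genes, 2 were called higher on this basis (0.0167%) and 4 lower (0.0334%). The exposed arrays lay wholly above the controls for 1012 genes (8.46%) and wholly below for 725 (6.06%). The only list member called was CLK1; SRSF6 is counted in the same list by its probe set that did not pass. List medians ran from -0.07 to 0.12 on the log2 scale.

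Genes of mitosis had the highest median of the 44 lists, 0.12 against 0.0051 over all genes. Of 34 measured members, 32 had a change above 0 and 0 passed, while 14 had exposed arrays wholly above the controls and 0 wholly below. TPX2, which activates the mitotic kinase AURKA, was at 8.68, 9.04 and 8.83 on exposed arrays, against 8.63, 8.57 and 8.58 on controls (0.26 ± 0.07, adjusted p = 0.304). ECT2, needed for cytokinesis (0.23 ± 0.07), KIF11, a spindle motor (0.26 ± 0.09), and HMMR, a spindle protein (0.18 ± 0.06), were next by p and did not pass. The mean level of the list was 8.26, 8.39 and 8.26 on the exposed arrays, against 8.16, 8.20 and 8.13 on the controls, so exposed replicate 2 stood highest. Without that array the median was 0.09. The change at 24 h differed from that at 1 h in 4 of the 34, all higher at 24 h, against 3.68% of all genes higher and 0.986% lower.

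**Figure D4:**
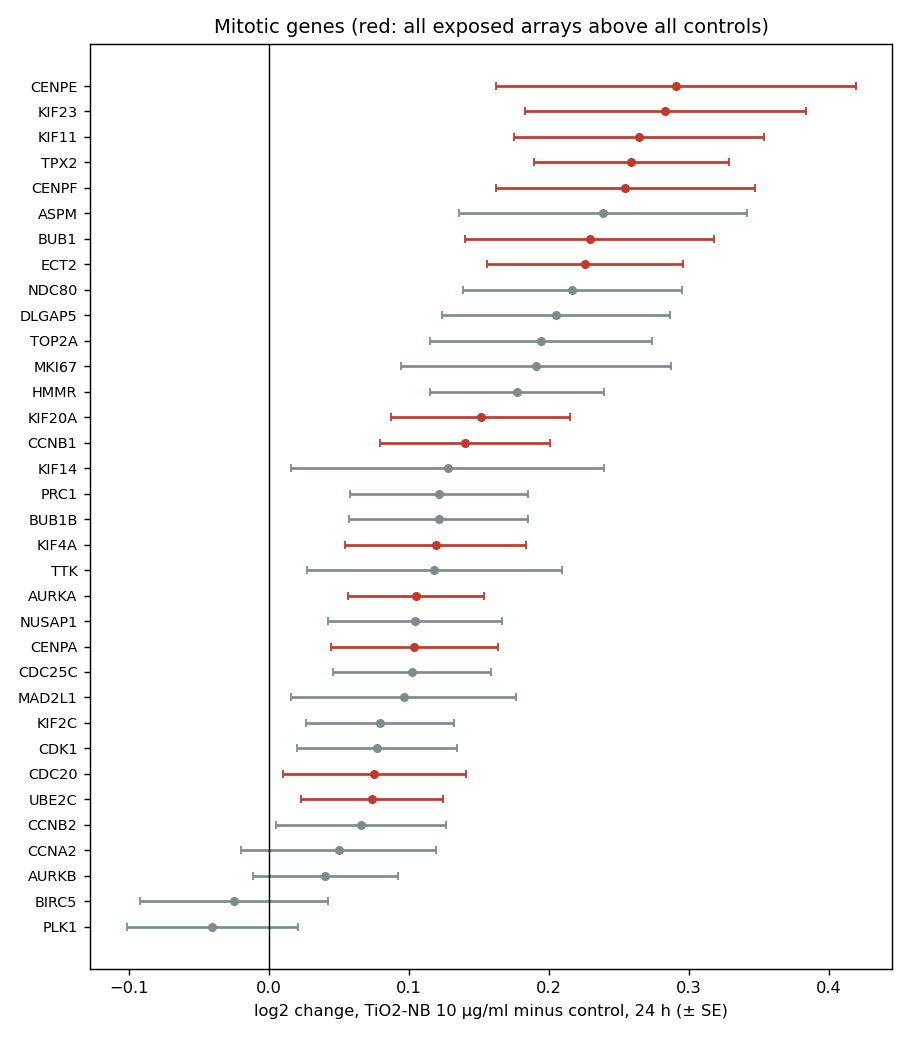
Log2 change (exposed minus control, ± SE from limma) of the 34 measured mitotic genes. In red are the 14 with all 3 exposed arrays above all 3 controls; the changes run from -0.04 to 0.29 and none passed the test.

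DNA replication genes had 33 of 37 changes above 0, 13 wholly above and 0 wholly below the controls, with a median of 0.06 and no call. RPA1, which coats single-stranded DNA, was at 11.01, 11.05 and 11.02 on exposed arrays, against 10.94, 10.93 and 10.90 on controls (0.11 ± 0.04, adjusted p = 0.543). The splicing list of CLK kinases, SR proteins and their partners had 10 of 30 members wholly above and 1 wholly below, with a median of 0.06 (0.03 without exposed replicate 2). Between the doses, 2 of its 30 members were higher and 1 lower at 10 than at 100 µg/ml, against 1.52% and 0.1% of all genes. TRA2A, an SR-like splicing factor, had a change of 0.15 ± 0.05 that did not pass. Heat shock chaperones had 7 of 18 wholly above (median 0.06, or 0.04 without exposed replicate 3 and 0.08 without exposed replicate 1 or control replicate 3), led by DNAJA1 at 0.09 ± 0.04, and adherens junction and desmosome genes had 5 of 18 (median 0.05). With 18S as a covariate the medians were 0.12 for mitosis, 0.08 for DNA replication, 0.06 for splicing, 0.06 for heat shock and 0.04 for adherens junctions and desmosomes.

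Oxidative and metal stress genes did not pass in any member. Of 29 measured NRF2 targets and partners, 7 lay wholly above and 2 wholly below the controls, with a median of 0.02 that was -0.0024 after a second quantile normalisation and 0.03 without exposed replicate 3 or control replicate 1. GSR, glutathione reductase, was at 9.09, 9.10 and 9.10 on exposed arrays, against 8.96, 8.98 and 8.93 on controls (0.14 ± 0.05, adjusted p = 0.533). The members with the highest levels had small changes: 0.03 ± 0.03 for FTL (ferritin light chain), 0.03 ± 0.03 for TXN (thioredoxin), and -0.08 ± 0.05 each for the aldo-keto reductases AKR1C1 and AKR1C2, which share near-identical sequence. Of 14 metallothionein and zinc genes, 0 lay wholly on either side. MT2A was at 8.16, 8.03 and 8.18 on exposed arrays and 8.19, 8.17 and 8.21 on controls. Peroxide and superoxide enzymes had 1 of 19 on each side.

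Inflammatory and interferon genes had medians below 0, with no call. NFKBIA, the inhibitor that NF-κB itself induces, was at 9.30, 9.22 and 9.29 on exposed arrays, against 9.37, 9.49 and 9.49 on controls (-0.18 ± 0.05, adjusted p = 0.378). Of 30 NF-κB genes, 3 lay wholly below and 0 wholly above, with a median of -0.03. Of 34 interferon response genes, 7 lay wholly below and 2 wholly above, with a median of -0.04 that was -0.02 without exposed replicate 2 and also without control replicate 2. CXCL8, the neutrophil chemokine, had overlapping arrays, at 5.22, 5.04 and 5.52 when exposed and 5.49, 5.44 and 5.71 in controls.

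Genes of absorptive cells included some far above the median probe set of an array, which lay between 6.45 and 6.49. FABP1, the fatty acid binding protein of enterocytes, was at 13.82, 13.86 and 13.83 on exposed arrays and 13.81, 13.81 and 13.76 on controls. VIL1, villin of the brush border, was between 11.90 and 11.97 on exposed arrays and between 11.88 and 11.92 on controls. Among 31 brush border genes, 3 lay wholly above and 0 wholly below (median 0.03); PDZK1, a scaffold of apical transporters, had a change of 0.12 ± 0.04. The peptidases DPP4 and MEP1A had changes of 0.01 and 0.04, whose signs turned when 1 array was left out.

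Of 9 measured mucins, 1 lay wholly above and 2 wholly below the controls. They averaged 6.31 to 6.37 on exposed arrays and 6.33 to 6.39 on controls, just below the median probe set. Their median change was -0.05, or -0.09 without exposed replicate 1 and -0.01 without control replicate 3. MUC5AC, the gel-forming mucin typical of HT29-MTX cells, was at 6.77, 6.89 and 6.77 on exposed arrays, against 6.68, 6.61 and 6.55 on controls (0.20 ± 0.08, adjusted p = 0.577). MUC6 and MUC5B, further gel-forming mucins, had changes of -0.16 ± 0.08 and -0.11 ± 0.09. FCGBP, a protein of goblet cell mucus, was at 7.09, 7.50 and 7.14 on exposed arrays, against 6.90, 6.83 and 6.83 on controls (0.39 ± 0.16, adjusted p = 0.569). Exposed replicate 2 was the highest array for it. Of 20 goblet cell genes, 2 lay wholly above and 1 wholly below.

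Barrier and uptake genes had no call. Of 14 tight junction genes, 0 lay wholly above and 1 wholly below: CLDN8, a claudin, at 2.69, 2.63 and 2.71 on exposed arrays, against 2.95, 2.85 and 2.89 on controls, all low levels. Of 35 endocytosis genes 3 lay wholly above and 1 wholly below, and of 39 lysosomal genes 7 and 1. IDUA, a lysosomal enzyme, had a change of 0.21 ± 0.07 (adjusted p = 0.426). BAX, a pore-forming death protein and p53 target, was at 8.86, 8.67 and 8.66 on exposed arrays, against 8.49, 8.61 and 8.53 on controls (0.19 ± 0.07, adjusted p = 0.474). SPRY2, an inhibitor of growth factor signalling, had a change of 0.20 ± 0.06 (adjusted p = 0.426). BMP2 and ID1, a ligand and a target of the same pathway, had changes of -0.21 ± 0.09 and -0.20 ± 0.09, with exposed arrays wholly below the controls. In the list of TGF-β and ID genes, 8 of 20 had a change above 0 and 12 below. Of these 20, 0 lay wholly above the controls and 3 wholly below, with a median of -0.01.

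Markers of cells that the culture should lack had no call. Leukocyte markers averaged 5.63 to 5.74 on exposed arrays and 5.70 to 5.75 on controls (21 measured, 0 wholly above and 1 wholly below). Endothelial markers averaged 4.72 to 4.90 on exposed arrays and 4.92 to 4.94 on controls (9 measured, 0 and 2), the lowest median of the 44 lists. Enteroendocrine and Paneth markers averaged 4.94 to 5.03 on exposed arrays and 4.99 to 5.01 on controls (14 measured, 1 and 1). Fibroblast markers averaged 6.54 to 6.61 on exposed arrays and 6.52 to 6.56 on controls (16 measured, 3 and 0). FN1 and FBLN1 of the fibroblast list stood at 12.96 and 10.70 at most on exposed arrays, so that list is not limited to genes at low levels in the co-culture. No probe set on these arrays reads 0, since the log2 values carry a background.

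**Figure D5:**
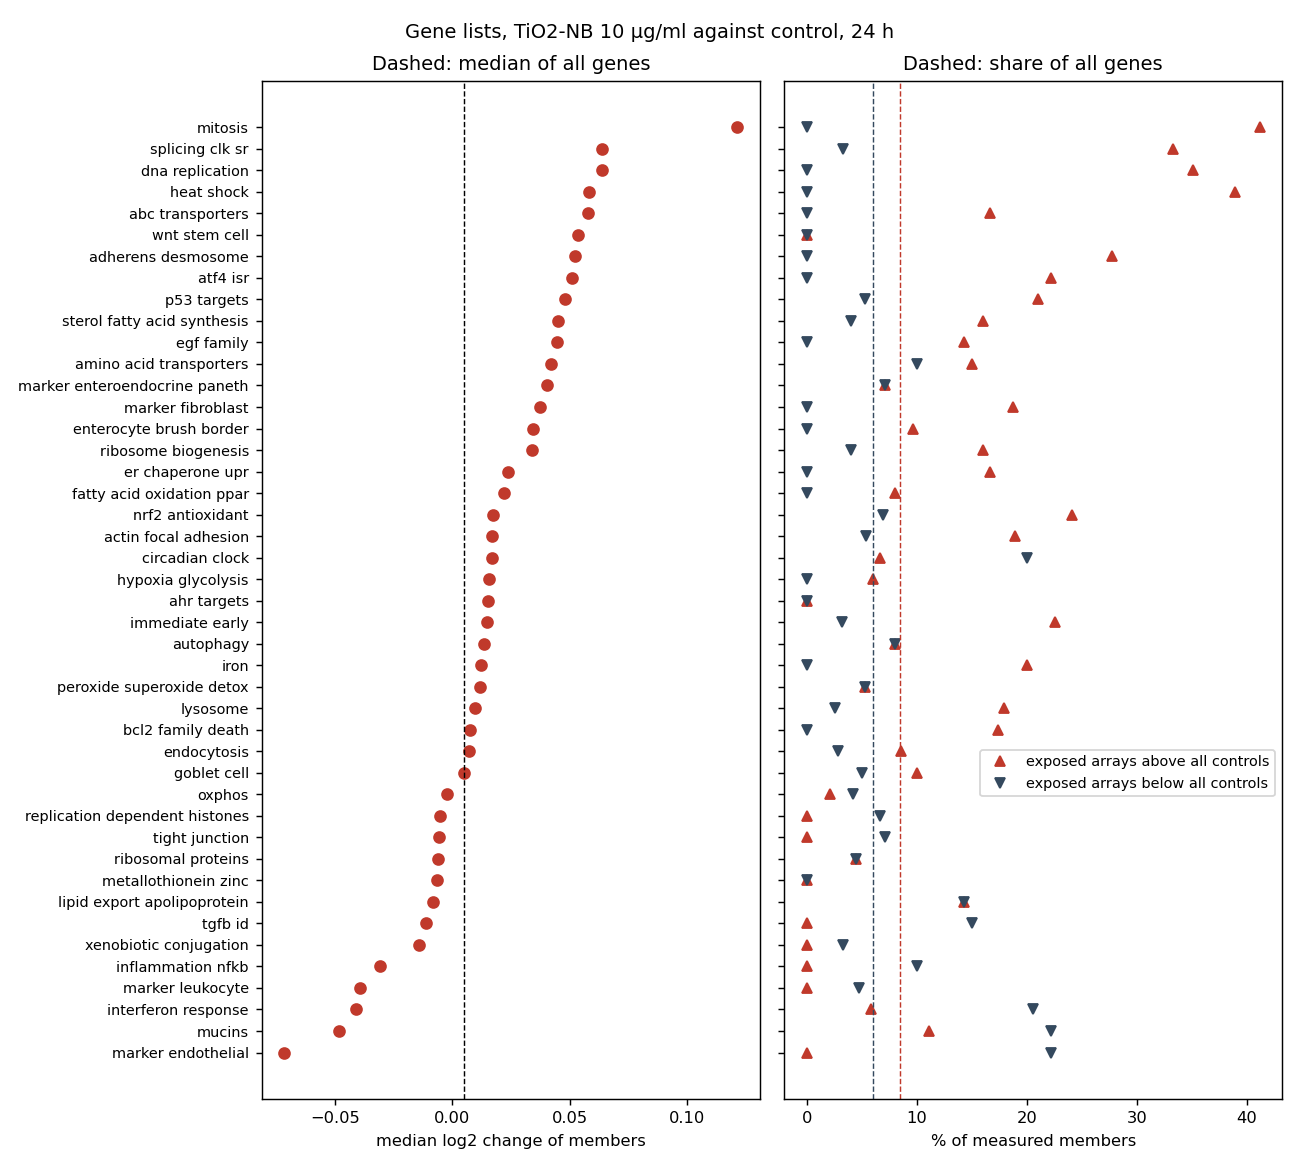
Left, the median log2 change (exposed minus control) of each of the 44 gene lists, with the median of all genes (0.0051) dashed. Right, the share of measured members whose exposed arrays lie wholly above (red) or below (blue) the controls, with the shares of all genes (8.46% and 6.06%) dashed; mitosis is highest on both scales.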

How the data were processed

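RNA was measured on 1-colour Affymetrix arrays, labelled from 3 µg of total RNA per well. The authors deposited log2 probe set levels made with RMA, per the submitters' processing notes; no version or chip definition was stated in what was used here. RMA sets the arrays to 1 distribution, so a change is relative to the other transcripts. The 22277 probe sets include 62 controls, left out of the tests. Of 22215, 19064 carry 1 symbol, 1043 several and 2108 none, by the platform annotation; 19052 matched RefSeq by gene identifier and 0 symbols changed. Array medians ran from 6.45 to 6.49, no 2 arrays were identical, and the number of arrays limits the precision.

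A mean per group was fitted to all 30 arrays (limma 3.58.1 in R 4.3.3, lmFit and eBayes, 20 residual and 3.69 prior degrees of freedom), with two-sided contrasts, Benjamini-Hochberg adjustment over all probe sets and a threshold of 0.05. The script was tested on simulated data. A gene counts as called through any probe set; lists use the one with the highest mean. Named were called genes with arrays that do not overlap, up to 15 each way, filled to 10 by p; up to 4 genes of each list by p, and in 4 lists by level; and up to 5 each way in the other contrasts. The text gives a selection of the list genes. In the other contrasts each gene was named by its called probe set with the largest difference, and not every other probe set is described. The members and lists were chosen with earlier results of these data known. Alternatives changed the arrays fitted, blocks, weights, covariates and normalisation.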

Additional observations from a re-analysis of the deposited data

Results flagged for a closer look

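The change against control at 24 h differed from that at 1 h by an interaction test (limma, Benjamini-Hochberg) in 654 probe sets with a higher and 197 with a lower value at 24 h. Of the probe sets of genes named above, those given here were among them. Where a gene was named for its 24 h change, that change is part of the difference, so its call is a description only. KANK1 differed by 1.09, FAM13A by 1.53, KHDC4 by 1.08, KLHL24 by 1.17 and PCK1 by 1.18, with changes near 0 at 24 h and negative changes at 1 h. BHLHE40 differed by -0.98, DDIT4 by -0.82 and EXOG by -0.71, with positive changes at 1 h. One of 4 PTP4A1 probe sets differed by 0.56, one of 2 DMXL2 probe sets by 0.56, 1 of 2 FZD7 probe sets by 0.35 and GABPA by 0.53, with positive changes at 24 h and negative ones at 1 h. The other DMXL2 probe set differed by -0.64, with a negative change at 24 h and a positive one at 1 h. Differences were -1.33 in 1 of 2 TOP1 probe sets, -0.74 in ANKRD11 and -0.56 in 1 of 2 UBN1 probe sets, with negative changes at 24 h. The call for ANKRD11 held in 1 of 12 fits without 1 array. Among list members, HMMR differed by 0.45, PDZK1 by 0.34, TRA2A by 0.23 and DNAJA1 by 0.21, with positive changes at 24 h and negative ones at 1 h, and NFKBIA by 0.44, with a change of -0.18 at 24 h and -0.62 at 1 h. None of these 5 passed against control at 24 h.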

How the results depend on the processing

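The called probe sets of TOP1, UGCG and GPATCH8 passed in every alternative fit that held them (14, 15 and 14 fits). The fit with 1 probe set per gene left out those of TOP1 and GPATCH8. The probe sets that stood for these 2 genes there did not pass in the main fit. The 13 calls against control became 5 with 1 probe set per gene and 54 with 18S as a covariate; without 1 array each they were 8 to 18. Calls of higher level were 0 with only the arrays compared, 3 with only the 24 h arrays, 1 with 1 probe set per gene, 9 with 18S and 3 to 7 without 1 array; calls of lower level were 16 with only the arrays compared, 13 with array weights, 4 with 1 probe set per gene, 45 with 18S and 5 to 11 without 1 array. Against 100 µg/ml, 406 calls became 2 with only the arrays compared, 190 with 1 probe set per gene and 191 to 574 without 1 array. Against carbon nanotubes, 7 became 1 with only the 24 h arrays, 12 with the replicate block, 45 with 18S and 2 to 9 without 1 array. Between the times, 851 became 277 with only the arrays compared, 530 with only the TiO2-NB and control arrays and 465 to 1024 without 1 array. Where fewer arrays or probe sets were fitted, the count rests on fewer of them; for the others the cause was not tested.

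Replicate numbers are shared across groups, and same-numbered arrays of the exposed and control groups had correlations of 0.026, 0.164 and 0.151 after group means were removed, so the numbers were not taken as pairs, though each array correlated best with its own number. The replicate block gave 15 calls against control, 408 against 100 µg/ml and 834 between the times. Signs turned in medians and in genes near 0: the NRF2 median was -0.0024 after a second quantile normalisation and the metallothionein and zinc median 0.012 without exposed replicate 2; SLC39A14 was at -0.0109 after a second quantile normalisation, -0.0074 with 18S and -0.00769 to 0.0163 without 1 array; MUC1 at -0.00947 with array weights and -0.0121 to 0.0794 without 1 array; DPP4 at -0.00149 to 0.0264, MEP1A at -0.00209 to 0.0694 and SLC30A1 at -0.0278 to 0.0356 without 1 array.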
